A study of Mus musculus with 12 samples.

Results

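The mitochondrial genome encodes 37 of the 54532 genes in the expression table, and all 37 were taken here by their symbols, which begin with mt-. They comprise 13 genes for proteins of the respiratory chain, 2 genes for ribosomal RNAs (rRNAs) and 22 genes for transfer RNAs (tRNAs). They were measured in mouse primary CD8+ T cells, which were isolated from C57BL/6 wild-type mice with magnetic beads and activated in culture. The cells received Accell siRNA, a form that enters cells without a transfection reagent, which was either a non-targeting control (siNTC) or directed against Creb1 (siCreb1), a cAMP-responsive transcription factor. They were then cultured for 24 h with the dietary fatty acid trans-vaccenic acid (TVA) or with its vehicle, DMSO. This gave 4 groups of 3 libraries each: siNTC, siNTC with TVA, siCreb1 and siCreb1 with TVA. No source used here says that the 3 libraries of a group came from separate mice or cultures, so each p-value measures only the spread between these libraries. Per the labels, RNA was prepared with an RNeasy kit and sequenced from an mRNA-Seq library kit. Levels are FPKM, fragment counts scaled to the length of the gene and to the mapped fragments of the library.

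Mitochondrial DNA is a small circle held in many copies per cell. Both of its strands are transcribed from end to end by the mitochondrial RNA polymerase POLRMT with the help of TFAM, and the long transcripts are cut at the tRNAs that lie between most of the other genes. Most of the mRNAs are polyadenylated and are stabilised by the LRPPRC–SLIRP complex, and mitochondrial ribosomes translate the mRNAs into core subunits of complexes I, III, IV and V. All other subunits of these complexes, and every factor that copies, transcribes or translates the mitochondrial genome, are encoded in the nucleus. Activated T cells expand their mitochondria while they grow and divide.

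The 12 libraries held 16660234 to 24602484 reads each, with a median of 20759165. These totals were recovered from the FPKM values, of which at least 99.995% in each library were whole multiples of the value of 1 read. Creb1 stood at 10.3 to 12.4 FPKM in the 6 siNTC libraries and at 1.17 to 1.81 FPKM in the 6 siCreb1 libraries, and the groups did not overlap (exact permutation test over all 924 divisions, two-sided p = 0.00216). All 6 T cell and CD8 markers examined were present, and their summed level was 2220 to 2377 FPKM per library. The summed markers of CD4 T cells, B cells, myeloid cells and NK cells ranged from 1.09 to 8.72 FPKM, and those of red cells from 0 to 0.494 FPKM. With siCreb1, limma called 4 of the 6 T cell and CD8 markers lower and 1 higher without TVA, and 3 lower and 1 higher with TVA. Their median log2 differences were -0.11 and -0.08.

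Several of the protein genes have near-identical copies in the nuclear genome, so the sequences that decide whether a read can be placed are shown first. Sequences and positions are from GENCODE M21 on GRCm38. The first 90 bases of mt-Co2, which encodes subunit 2 of complex IV, are the same as those of Gm28661, an annotated gene on chromosome 1 (24614885 to 24615565, minus strand). Those of mt-Nd3, a complex I subunit, and of Gm28438 on chromosome 1 differ at 1 base, T3C, counted from 1 at the 5′ end of mt-Nd3. Bases 2 to 91 of mt-Cytb, the complex III subunit, differ from Gm11410 on chromosome 4 at 5 bases. Capitals mark the bases that differ.
mt-Co2: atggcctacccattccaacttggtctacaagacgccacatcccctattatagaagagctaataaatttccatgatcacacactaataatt
Gm28661: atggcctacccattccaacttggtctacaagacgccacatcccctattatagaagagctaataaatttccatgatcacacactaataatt
mt-Nd3: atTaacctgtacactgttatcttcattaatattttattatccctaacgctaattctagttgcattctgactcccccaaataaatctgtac
Gm28438: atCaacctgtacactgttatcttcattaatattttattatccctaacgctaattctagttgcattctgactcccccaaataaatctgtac
mt-Cytb: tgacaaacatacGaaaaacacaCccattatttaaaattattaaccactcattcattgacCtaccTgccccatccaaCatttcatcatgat
Gm11410: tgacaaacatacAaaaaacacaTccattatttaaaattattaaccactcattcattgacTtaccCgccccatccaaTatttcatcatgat

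The 3 tRNAs with the most reads are mt-Tn, mt-Tc and mt-Tp, which carry asparagine, cysteine and proline. They are shown because the differences between groups described further on lie in mt-Tn and mt-Tc. Capitals mark the anticodon, the bases that pair with the codon.
mt-Tn: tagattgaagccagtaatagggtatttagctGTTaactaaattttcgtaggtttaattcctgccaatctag
mt-Tc: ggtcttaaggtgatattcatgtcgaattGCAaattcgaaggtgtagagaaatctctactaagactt
mt-Tp: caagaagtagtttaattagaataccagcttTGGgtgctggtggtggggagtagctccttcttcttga

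Mitochondrial genes took 1.85 to 2.13% of all reads, or 323857 to 484787 reads per library. The share was 1.97% ± 0.143 in siNTC, 1.96% ± 0.0295 in siNTC with TVA, 1.97% ± 0.0320 in siCreb1 and 1.97% ± 0.0180 in siCreb1 with TVA (SD, n = 3 each). The group means therefore lay closer together than the libraries of any one group. Of the mitochondrial reads, 93.8% fell on protein genes, 5.79% on rRNAs and 0.396% on tRNAs, averaged over libraries. In bulk RNA a change in the number of mitochondria, in genome copies per mitochondrion and in RNA per genome cannot be told apart.

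**Figure D1:**
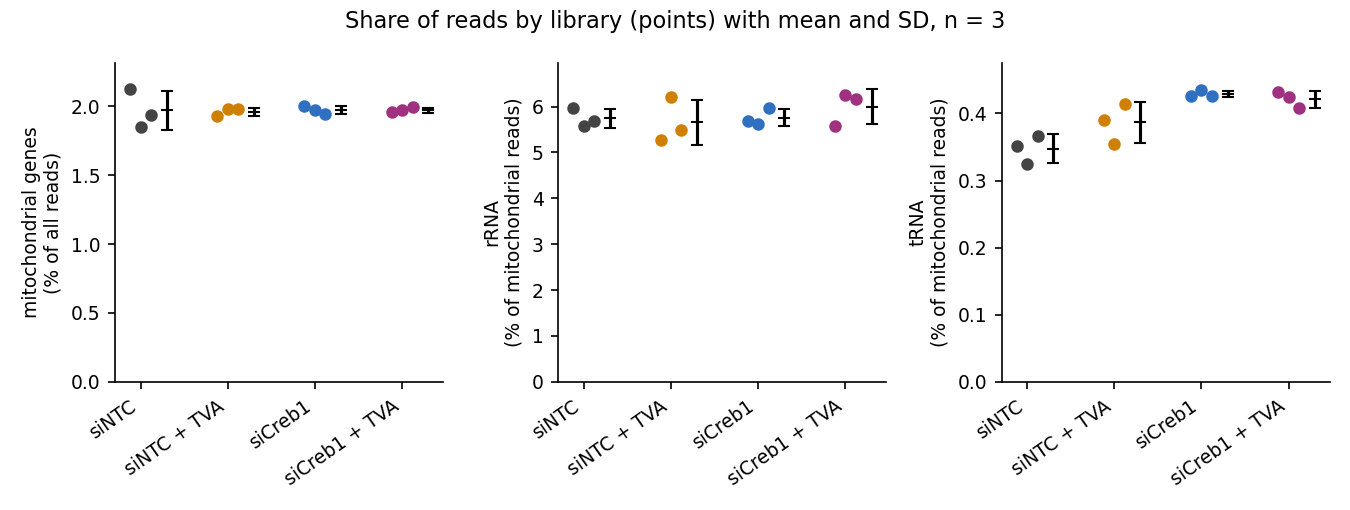
Reads in each of the 12 libraries (points) with the group mean and SD (n = 3), for all 37 mitochondrially encoded genes as percent of all reads (left), and for rRNA (middle) and tRNA (right) as percent of mitochondrial reads. The left values lie between 1.85 and 2.13% in all groups and the rRNA values between 5.28 and 6.26%, while the tRNA means are 0.348% in siNTC and 0.429% in siCreb1.

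The 13 protein genes fell into an abundant and a scarce set. mt-Co1 (MT 5328 to 6872, plus strand), the catalytic subunit of complex IV, was the highest in every library, with a mean of 5649 FPKM, and it alone held 44.4% of the mitochondrial reads. It stood at 6294, 5529 and 5671 FPKM in siNTC, 5604, 5644 and 5658 in siNTC with TVA, 5707, 5568 and 5568 in siCreb1, and 5501, 5486 and 5563 in siCreb1 with TVA. The first siNTC library was the highest of the 12, and the other 11 libraries lay within a narrow range.

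Next came mt-Nd1 at 2341 FPKM and mt-Cytb at 2210 FPKM, followed by mt-Nd2 at 1220, mt-Nd6 at 1046, mt-Nd5 at 1016 and mt-Nd4 at 837 FPKM. mt-Nd1, mt-Nd2, mt-Nd4, mt-Nd5 and mt-Nd6 all encode membrane subunits of complex I, the NADH dehydrogenase. Each gene in this order was higher than the next in 12 of 12 libraries, except that mt-Nd6 exceeded mt-Nd5 in 10 of 12. The ranges over libraries overlapped for mt-Nd1 with mt-Cytb and for mt-Nd6 with mt-Nd5, and for no other neighbours among these 7 genes. mt-Nd6 is the only protein gene read from the opposite strand to the other 12, and its level was close to that of mt-Nd5, with which it overlaps by 14 bases. Whether the counting used strand is not given in the sources used here, so reads in those 14 bases cannot be assigned to either gene. Without use of strand, reads from transcripts of the other strand over the rest of mt-Nd6 would also count towards it. Their part in its level was not tested. Together the 7 genes held 93.3% of the mitochondrial reads.

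The other 6 protein genes were far lower: mt-Nd3 at 75.8 FPKM, mt-Co2 at 50.6, mt-Co3 at 23.0, mt-Atp6 at 21.5, mt-Nd4l at 13.2 and mt-Atp8 at 2.40 FPKM. mt-Co2 and mt-Co3 encode the other two mitochondrial subunits of complex IV, and mt-Atp6 and mt-Atp8 those of complex V, the ATP synthase. mt-Atp8 (MT 7766 to 7969, plus strand) was the lowest protein gene, with 6 to 16 reads per library. Its FPKM was 1.96, 2.54 and 2.84 in siNTC, 1.59, 2.95 and 2.17 in siNTC with TVA, 3.05, 2.19 and 3.55 in siCreb1, and 1.23, 2.55 and 2.22 in siCreb1 with TVA, and all 4 groups overlapped. mt-Atp8 and mt-Atp6 share 43 bases on one strand and are known to be translated from one mRNA, so reads in the overlap belong to both. The end of mt-Atp8, bases 142 to 204, is shown with these 43 bases in capitals.
mt-Atp8: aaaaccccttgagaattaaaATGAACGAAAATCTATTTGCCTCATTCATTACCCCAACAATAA

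**Figure D2:**
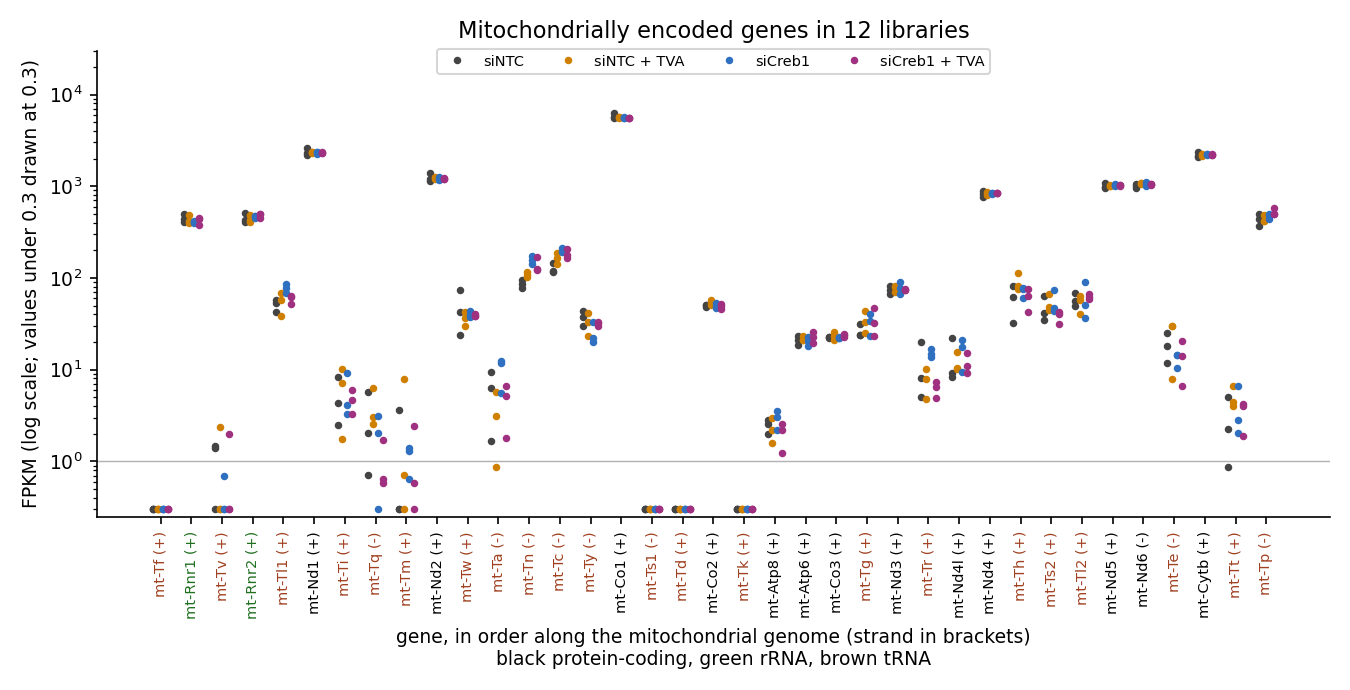
FPKM of the 37 genes in each of the 12 libraries on a log scale, in genome order with the strand in brackets and coloured by group; values under 0.3 are drawn at 0.3, and the line marks 1 FPKM. mt-Co1, at 5486 to 6294 FPKM, is the highest gene, mt-Atp8, at 1.23 to 3.55 FPKM, is the lowest protein gene, and 4 tRNAs stay at the bottom in all libraries.

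Of the 6 low protein genes, 5 have a sequence that is repeated almost whole elsewhere in the annotation, and mt-Atp8 does not. For each gene, every stretch of 50 bases was looked up in all other annotated transcripts. The share of such stretches found elsewhere was 100% in mt-Co2, 99.9% in mt-Co3, 99.5% in mt-Atp6, 98.8% in mt-Nd4l and 98.0% in mt-Nd3, and these 5 genes ranged from 13.2 to 75.8 FPKM. It was 62.2% in mt-Nd4 and 51.1% in mt-Co1, 8.19% in mt-Nd2 and 7.61% in mt-Nd5. No shared stretch was found in mt-Nd1, mt-Cytb, mt-Nd6 or mt-Atp8. mt-Rnr2 had 1.04% and no tRNA had any. The copy of mt-Cytb printed above is long but differs too often to share a stretch of 50 bases.

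Of the copies, 7 lie on chromosome 1 between 24611535 and 24616197, where they run along mitochondrial positions 6390 to 11042 in the same order and on the other strand. Distances along this block and along the mitochondrial genome differ by at most 1 base over all 7 copies. The mitochondrial interval holds 6 protein genes whole, which are the 6 low ones, with mt-Atp8 among them at 2.40 FPKM. It also holds parts of mt-Co1 and mt-Nd4. The 5 protein genes outside it ranged from 1016 to 2341 FPKM. Of the 5 tRNAs inside it, 3 had no read in any library, against 1 of the 17 tRNAs outside.

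The copies themselves were detected. Gm28661, the copy of mt-Co2, stood at 62.7 FPKM, which was 1.24 times the level of mt-Co2. Gm10925, the copy of mt-Atp6, stood at 32.7 FPKM or 1.52 times its mitochondrial counterpart. Gm28437, the copy of mt-Co3, stood at 15.2 FPKM and Gm10222, the copy of mt-Nd4l, at 5.70 FPKM, which were 0.663 and 0.430 times the levels of their counterparts. Gm28438 stood at 6.21 FPKM, against 75.8 FPKM for mt-Nd3. The copies of parts of mt-Co1 and mt-Nd4, Gm29216 and Gm28439, stood at 14.7 and 6.86 FPKM, far below mt-Co1 and mt-Nd4. Gm13340 on chromosome 2, which is 97.6% identical to mt-Co1, stood at 1.38 FPKM. A read from an identical stretch cannot be told apart from one of its copy, and how the authors' counting treated such reads was not tested. The levels of mt-Co2, mt-Co3, mt-Atp6, mt-Nd3 and mt-Nd4l, and of their copies, are therefore uncertain. The same holds in part for mt-Nd4 and mt-Co1, and so for their places in the order of levels. mt-Atp8 and the 3 tRNAs at 0 inside the interval share no stretch with an annotated transcript, but the genome sequence of chromosome 1 was not used here, so matches to unannotated bases of the block were not tested.

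**Figure D3:**
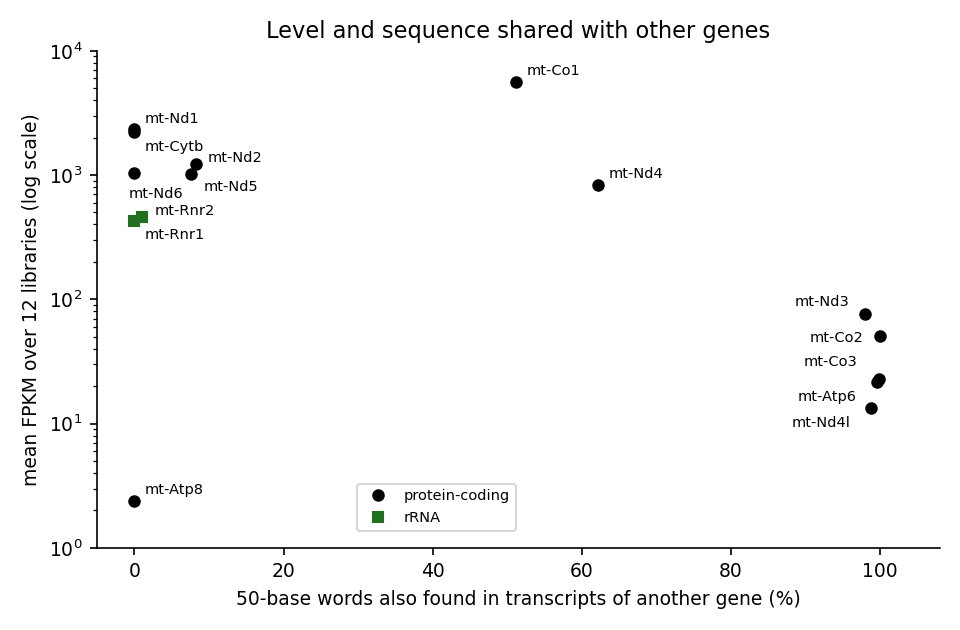
Mean FPKM over 12 libraries on a log scale against the percent of 50-base stretches also found in transcripts of another gene, for the 13 protein genes (circles) and 2 rRNA genes (squares). The 5 genes with 98.0% or more shared lie at 13.2 to 75.8 FPKM, and the protein genes with none shared include mt-Nd1 at 2341 FPKM and mt-Atp8 at 2.40 FPKM.

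The rRNAs were present although the kit was meant for mRNA. mt-Rnr1 (MT 70 to 1024, plus strand), the RNA of the small mitochondrial ribosomal subunit, ranged from 382 to 498 FPKM, and mt-Rnr2, that of the large subunit, from 402 to 513 FPKM. mt-Rnr1 stood at 498, 411 and 442 FPKM in siNTC, 397, 483 and 421 in siNTC with TVA, 406, 401 and 417 in siCreb1, and 382, 446 and 441 in siCreb1 with TVA, and all 4 groups overlapped. Per length both lay below each of the 7 abundant protein genes and above the 6 low ones.

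The groups were compared by limma on log2(FPKM + 1) in 5 comparisons, with p-values adjusted over the 11550 genes whose mean was at least 1 FPKM. They were TVA against DMSO in siNTC cells, TVA against DMSO in siCreb1 cells, siCreb1 against siNTC without TVA, siCreb1 against siNTC with TVA, and the interaction, which is the TVA difference in siCreb1 cells minus that in siNTC cells. Of the mitochondrial genes, 32 passed this level, namely all 13 protein genes, both rRNAs and 17 tRNAs. Because the tRNAs are short, their FPKM values rest on few reads, and they are described after the other genes.

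None of the 13 protein genes and neither rRNA passed an adjusted p of 0.05 in any of the 5 comparisons. At an unadjusted p of 0.05 the number passing was also 0 in each, and limma-voom on the recovered reads called 0 as well. Over all genes tested, 7.38% were called for TVA in siNTC cells, 0.537% for TVA in siCreb1 cells, 13.7% for siCreb1 without TVA, 10.1% for siCreb1 with TVA and 2.24% for the interaction. Leaving out 1 of the 6 compared libraries took the 1172 genes called for siCreb1 with TVA to 599 to 757, and the 62 called for TVA in siCreb1 cells to 30 to 44. All of the 15 genes but mt-Nd6 lie on one strand, share precursor transcripts and are not independent of each other. The intervals of the 15 are therefore given beside the count.

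For the 7 abundant protein genes, the 95% intervals of the log2 differences were narrow. They reached from -0.14 to 0.19 for TVA in siNTC cells, from -0.13 to 0.13 for TVA in siCreb1 cells, from -0.16 to 0.17 for siCreb1 without TVA and from -0.15 to 0.12 for siCreb1 with TVA, taking the lowest and highest bound over the 7 genes. For the interaction the bounds were -0.25 and 0.19. For the 6 low protein genes the bounds were wider, at -0.82 and 0.81, -1.18 and 0.44, -0.48 and 1.14, and -0.85 and 0.77 in the same order of these 4 comparisons. For the rRNAs they were -0.25 and 0.16, -0.15 and 0.24, -0.33 and 0.25, and -0.23 and 0.33.

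**Figure D4:**
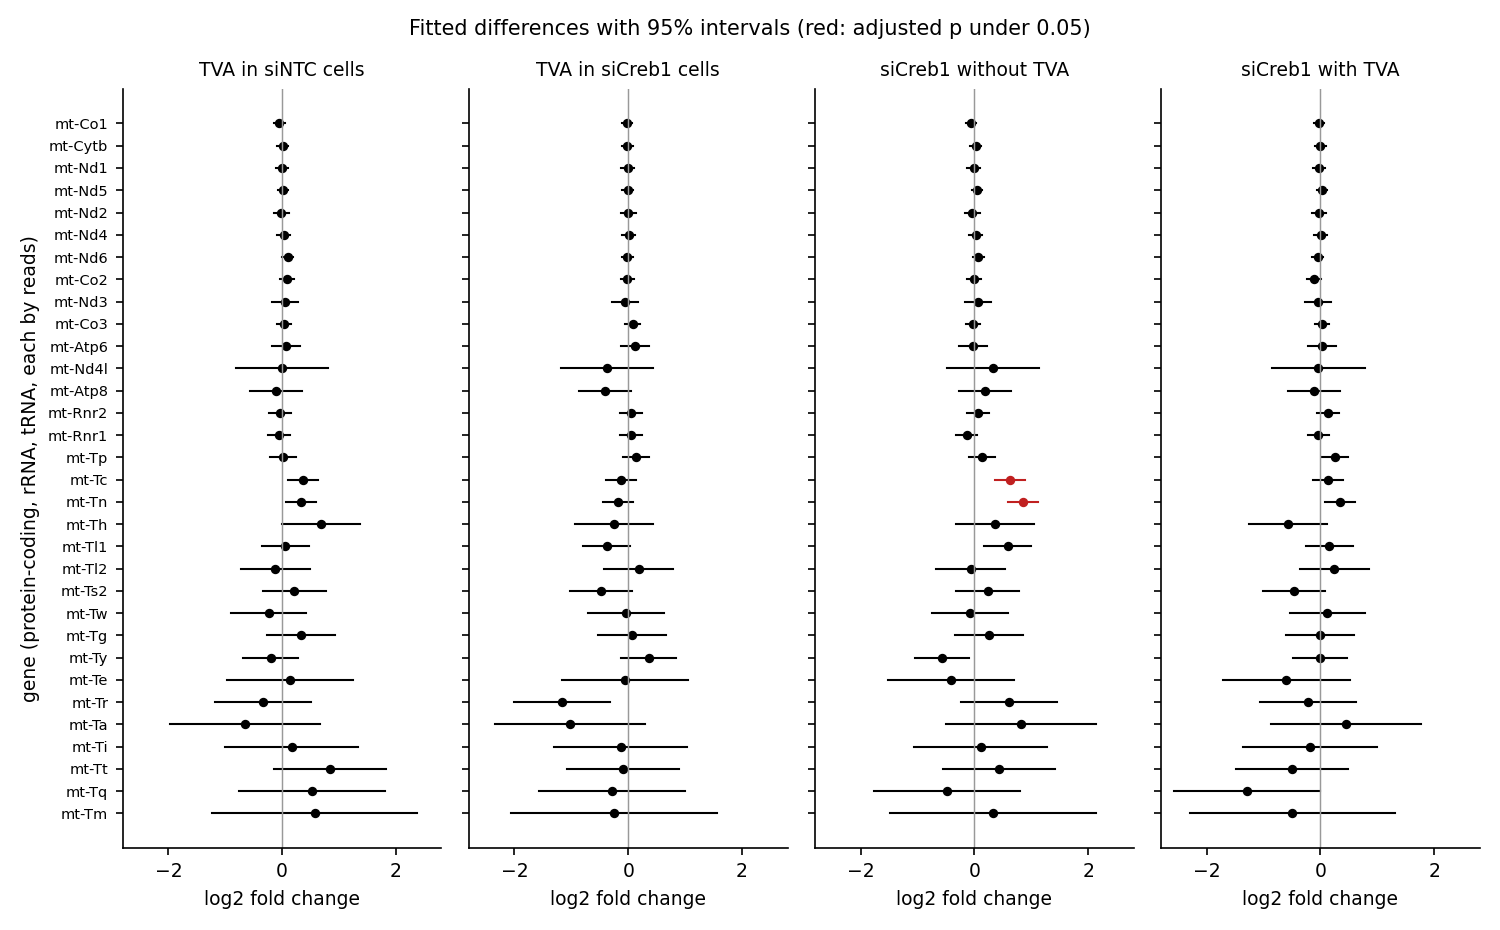
Log2 difference (points) with its 95% interval (bars) for the 32 tested genes in 4 comparisons between groups, from limma on log2(FPKM + 1), ordered by class and then by reads, with calls in red. The intervals of the 7 abundant protein genes stay between -0.16 and 0.19, mt-Tn and mt-Tc are the calls, at 0.86 and 0.63, and the tRNAs with few reads have the widest intervals.

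Among these 15 genes, the smallest adjusted p belonged to mt-Co2 (MT 7013 to 7696, plus strand). Its FPKM was 50.9, 48.7 and 50.7 in siNTC, 52.7, 50.6 and 56.8 in siNTC with TVA, 47.3, 49.2 and 52.8 in siCreb1, and 49.2, 46.3 and 52.2 in siCreb1 with TVA. All groups overlapped, and the largest difference, siCreb1 against siNTC with TVA, was -0.11 on the log2 scale (95% interval -0.23 to 0.01, limma adjusted p = 0.217). As every 50-base stretch of mt-Co2 is also found in another gene, this value is subject to the limit given above.

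mt-Nd6 (MT 13552 to 14070, minus strand), a complex I subunit, came next. Its FPKM was 1070, 955 and 998 in siNTC, 1063, 1083 and 1077 in siNTC with TVA, 1111, 1063 and 1001 in siCreb1, and 1028, 1044 and 1055 in siCreb1 with TVA. siNTC libraries 2 and 3 were the lowest of the 12. TVA in siNTC cells gave a log2 difference of 0.09 (95% interval -0.00 to 0.19, limma adjusted p = 0.249), and siCreb1 without TVA gave 0.07 (adjusted p = 0.320). Then came mt-Rnr1, at -0.14 for siCreb1 without TVA (95% interval -0.33 to 0.05, adjusted p = 0.336).

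Levels of the abundant genes moved together from library to library. Over the 21 pairs among the 7 abundant protein genes, the Pearson correlation of log2(FPKM + 1) over 12 libraries had a median of 0.79 and ranged from 0.33 to 0.97. All members share each library's depth and scaling. The first siNTC library was the highest of the 12 for 7 of the 13 protein genes, and it held the highest mitochondrial share of reads. Without it the median was 0.80 and the range 0.17 to 0.92. Without this library the siCreb1 difference of mt-Nd5 was 0.11 on the log2 scale (limma adjusted p = 0.0320), against 0.05 with it (adjusted p = 0.477).

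The tRNAs are short RNAs without a long poly(A) tail, and together their genes held 1049 to 2056 reads per library. Such reads can come from the tRNA or from long transcripts that are not yet cut, and these were not told apart. Levels given for a tRNA are those of reads on its gene. Of the 22, 4 had no read in any library (mt-Tf, mt-Ts1, mt-Td and mt-Tk, for phenylalanine, serine, aspartate and lysine). A count of 0 allows up to 3 reads, which corresponds to 1.71 to 2.77 FPKM depending on the gene and library. Another, mt-Tv for valine, had 0 to 3 reads per library, and at a mean of 0.655 FPKM it was not tested. The other 17 split by depth: mt-Tp and mt-Tc had over 100 reads in every library, while mt-Tn had 97 to 291. In all, 10 of the 22 averaged under 10 reads per library. Standard errors of the log2 differences reached 0.82 among the tested tRNAs in the 4 comparisons between groups, and 1.15 for the interaction.

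The reads were uneven between tRNAs annotated on the minus strand and those on the plus strand. As the use of strand in counting is not known, these counts do not show which strand the RNA came from. The 8 tRNAs on the minus strand held 743 to 1552 reads per library and the 14 on the plus strand 306 to 559, so the minus strand held 70.9% on average (65.1 to 75.5%). mt-Tp, mt-Tc and mt-Tn, which all lie on the minus strand, held 65.8% of the tRNA reads (59.7 to 71.7%). Beside them, mt-Nd6 is the sole protein gene on that strand.

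mt-Tn and mt-Tc were the only mitochondrial genes called in any comparison, and both were higher in siCreb1 than in siNTC cells without TVA. They are neighbours on the minus strand, at MT 5089 to 5159 (ENSMUSG00000064348) and MT 5192 to 5257 (ENSMUSG00000064349), 32 bases apart. In that comparison 13.7% of the 11550 genes were called and 6.52% were called higher, beside 2 of the 32 mitochondrial genes.

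mt-Tn stood at 94.5, 78.5 and 86.3 FPKM in siNTC and at 158, 171 and 142 FPKM in siCreb1. With TVA it stood at 101, 117 and 109 FPKM in siNTC and at 171, 126 and 123 FPKM in siCreb1. Every siCreb1 library was above every siNTC library at either condition, and the siNTC libraries with TVA lay above those without. Of the 11550 genes tested, 1793 had siCreb1 higher without overlap in the absence of TVA, and 1649 with TVA. For TVA in siNTC cells, 1354 were higher without overlap. Among the 32 mitochondrial genes the numbers were 3, 2 and 1 in the same order. Without TVA the log2 difference of mt-Tn between siCreb1 and siNTC was 0.86 (SE 0.12, 95% interval 0.59 to 1.13, limma adjusted p = 0.00161), a ratio of means of 1.82. With TVA the difference was 0.34 (95% interval 0.07 to 0.61, adjusted p = 0.104).

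mt-Tc stood at 147, 120 and 117 FPKM in siNTC and at 194, 191 and 210 FPKM in siCreb1. With TVA the values were 143, 165 and 189 FPKM in siNTC and 208, 163 and 176 FPKM in siCreb1. The groups were separate without TVA and overlapped with it. The log2 difference was 0.63 without TVA (SE 0.12, 95% interval 0.37 to 0.90, limma adjusted p = 0.00680), a ratio of means of 1.55, and 0.14 with TVA (adjusted p = 0.496).

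The difference between the conditions was tested as the interaction, which was -0.51 for mt-Tn (95% interval -0.90 to -0.13, adjusted p = 0.185) and -0.49 for mt-Tc (95% interval -0.86 to -0.12, adjusted p = 0.191). Neither passed, so a different response to siCreb1 with and without TVA was not shown. TVA in siNTC cells gave 0.33 for mt-Tn (adjusted p = 0.144) and 0.37 for mt-Tc (adjusted p = 0.102), and TVA in siCreb1 cells gave -0.18 and -0.13 (adjusted p = 0.710 and 0.817). Calls near the threshold moved with single libraries: without the first siCreb1 library with TVA, mt-Tn had an interaction of -0.67 (adjusted p = 0.0296) and an adjusted p of 0.0435 for TVA in siNTC cells, and without the first siNTC library mt-Tc gave 0.47 for TVA in siNTC cells (adjusted p = 0.0488). The comparison of siCreb1 with siNTC without TVA and that for TVA in siNTC cells share the 3 siNTC libraries, which were the lowest group for both tRNAs.

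mt-Tp (MT 15356 to 15422, minus strand), the tRNA gene with the most reads at 434 to 969 per library, stood at 495, 372 and 438 FPKM in siNTC, 421, 413 and 485 in siNTC with TVA, 487, 495 and 444 in siCreb1, and 503, 578 and 493 in siCreb1 with TVA. Its libraries with siCreb1 and TVA were above those with siNTC and TVA, while the other groups overlapped. With TVA, 1649 of the 11550 genes tested had siCreb1 higher without overlap, beside 2 of the 32 mitochondrial genes. The log2 differences of mt-Tp were 0.02 for TVA in siNTC cells and 0.14 for TVA in siCreb1 cells. They were 0.14 for siCreb1 without TVA and 0.26 for siCreb1 with TVA (95% interval 0.03 to 0.48, limma adjusted p = 0.143). Across the 12 libraries mt-Tn correlated with mt-Tc at a Pearson r of 0.89, with mt-Tp at 0.55 and with mt-Nd6 at 0.43, and mt-Tc with mt-Tp at 0.51.

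**Figure D5:**
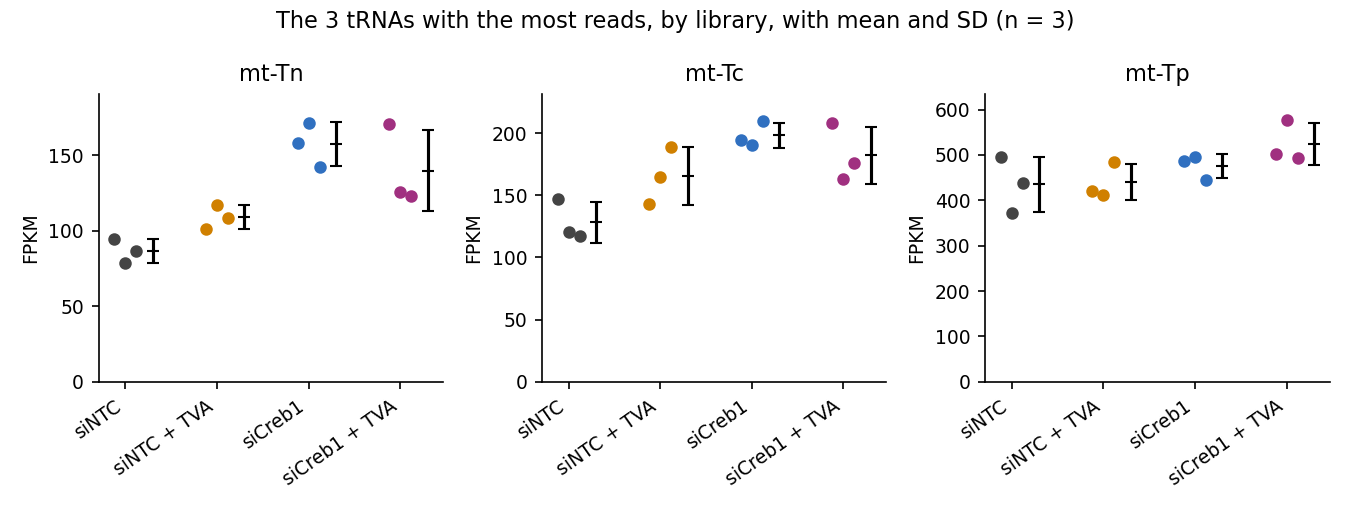
FPKM of mt-Tn, mt-Tc and mt-Tp in each library (points) by group, with the group mean and SD (n = 3). For mt-Tn and mt-Tc the siCreb1 libraries without TVA lie above the siNTC libraries without TVA (142 to 171 against 78.5 to 94.5 FPKM for mt-Tn), and for mt-Tp the groups without TVA overlap.

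The 2 tRNAs sit in a cluster of 5 that separates mt-Nd2 from mt-Co1. The other three did not pass in the same comparison: mt-Ta for alanine gave 0.82 on 1 to 19 reads per library (adjusted p = 0.417), mt-Ty for tyrosine -0.57 (adjusted p = 0.113) and mt-Tw for tryptophan, on the plus strand, -0.08. Among all members, mt-Tl1, a leucine tRNA, also had all siCreb1 libraries above all siNTC libraries without TVA, at 0.59 (adjusted p = 0.0629). That made 3 members whose groups were separate with siCreb1 higher, where 15.5% of all genes tested were. At an unadjusted p of 0.05, 4 mitochondrial genes passed for siCreb1 without TVA, 3 for siCreb1 with TVA, 3 for TVA in siNTC cells, 1 for TVA in siCreb1 cells and 2 for the interaction, all of them tRNAs. Over all genes 28.1%, 26.2%, 20.9%, 9.58% and 14.3% did so.

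Reads on tRNAs as a class are given as values only, with no test. For every 1e6 reads of a library, they numbered 68.6 ± 7.80 in siNTC, 75.8 ± 5.92 in siNTC with TVA, 84.6 ± 1.70 in siCreb1 and 83.1 ± 1.64 in siCreb1 with TVA (SD, n = 3 each). Leaving out mt-Tn and mt-Tc, the values were 54.1 ± 6.67, 57.1 ± 5.48, 60.2 ± 1.39 and 60.8 ± 2.70. Without these 2 genes the highest siNTC library, at 58.7, exceeded the lowest siCreb1 library, at 58.6. Malat1 and Neat1, long RNAs retained in the nucleus, were called higher in the same comparison, at 0.49 and 0.47 on the log2 scale, and with TVA at 0.62 and 0.41. The small RNA Rn7sk, which lacks a poly(A) tail, ranged from 19.7 to 74.8 FPKM and was not called. The part of RNA composition or recovery in the mt-Tn and mt-Tc differences was not tested.

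Genes of the nucleus with mitochondrial functions were listed by role, 185 in all, of which 183 were tested. They include factors that serve the mitochondrial genome and also nuclear subunits of the respiratory chain. Of these subunits, 4 belong to complex II, which has no mitochondrial subunit. The transcription machinery had no call among its 11 genes in any of the comparisons by limma or limma-voom, with 0 to 3 genes at an unadjusted p of 0.05. Polrmt, the polymerase, averaged 10.3 FPKM, Tfam, which packages mitochondrial DNA and starts transcription, 18.8 FPKM, Lrpprc 10.9 FPKM and Pnpt1, the nuclease that degrades mitochondrial RNA, 12.8 FPKM. Slirp, the partner of Lrpprc, averaged 0.697 FPKM and was not tested. Over the whole list, 3 genes were higher and 3 lower for TVA in siNTC cells, 0 were called for TVA in siCreb1 cells, 3 higher and 11 lower for siCreb1 without TVA, and 5 higher and 20 lower for siCreb1 with TVA. These were 3.28%, 0%, 7.65% and 13.7% of the 183, beside backgrounds of 7.38%, 0.537%, 13.7% and 10.1%. Among all genes tested, 4.49% were higher and 2.88% lower for TVA in siNTC cells, 6.52% and 7.21% for siCreb1 without TVA, and 4.64% and 5.51% for siCreb1 with TVA. The interaction had 0 calls by limma and 2 by limma-voom on the recovered reads, which also made 1 call for TVA in siCreb1 cells. At an unadjusted p of 0.05, 22 of the 183 passed for the interaction and 14 for TVA in siCreb1 cells, where 14.3% and 9.58% of all genes tested did. For TVA in siNTC cells, siCreb1 without TVA and siCreb1 with TVA, 35, 37 and 65 passed, beside 20.9%, 28.1% and 26.2% of all genes.

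Most of the 20 listed genes called lower with siCreb1 and TVA were nuclear subunits of complexes I, III, IV and V, whose mitochondrial subunits were measured above. Of 74 such subunits tested, 18 fell and 0 rose, or 24.3% lower against 5.51% of all genes tested, and their median log2 difference was -0.13 against -0.01 for all genes. Cox4i1, a complex IV subunit, fell by 0.13 (limma adjusted p = 0.00268), Atp5b, the catalytic subunit of complex V, by 0.14 (adjusted p = 0.00494), and Ndufb5 of complex I by 0.19 (adjusted p = 0.00785). The largest changes were in Ndufa1 and Ndufa2 of complex I, which fell by 0.28 and 0.26, and in Cox7a2 of complex IV, which fell by 0.25. The mitochondrial subunits of the same complexes had no call there. Of the 13, 2 had all siCreb1 libraries with TVA below all siNTC libraries with TVA, where 17.6% of all genes tested did: mt-Co1, at 5486 to 5563 against 5604 to 5658 FPKM, and mt-Nd6, at 1028 to 1055 against 1063 to 1083 FPKM. Their log2 differences were -0.03 and -0.04. Whether mitochondrial and nuclear subunits differed was not tested.

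Without TVA, 8 of the 74 nuclear subunits fell and 0 rose, or 10.8% against a background of 7.21% lower, with a median of -0.03. For TVA in siNTC cells, 2 rose and 1 fell, with a median of 0.06, and 20 of the 74 were below 0. For TVA in siCreb1 cells there was no call by limma, with a median of -0.03. The comparison of siCreb1 with siNTC under TVA and that for TVA in siNTC cells share the 3 siNTC libraries with TVA. Beside these falls, the T cell and CD8 markers moved as given above, and Lyz2, the myeloid marker that was tested, rose by 0.40 with siCreb1 under TVA (limma adjusted p = 0.0478). Their part in the result was not tested. The count with TVA depended on scaling and on single libraries: with FPKM rescaled to a fixed total per library (TPM), calls among the 183 genes numbered 5 in place of 25, and leaving out any 1 of the 6 libraries compared left 8 to 15.

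The remaining calls were scattered among roles. Hsd17b10 and Trmt10c, which encode components of the mitochondrial RNase P that cuts tRNAs from their precursors at the 5′ end, fell with siCreb1 without TVA, by 0.25 and 0.19 (limma adjusted p = 0.0187 and 0.0224). They were not called with TVA, at -0.17 and -0.05. Hsd17b10 also fell with TVA in siNTC cells, by 0.22 (adjusted p = 0.0460). Mtif3, a translation initiation factor, fell by 0.23 without TVA, and Grsf1, an RNA-binding protein of mitochondrial RNA granules, fell by 0.16 with TVA, as did Rexo2, an exonuclease for short RNAs. Among the genes that rose with siCreb1, Atad3a, a protein of the nucleoid and inner membrane, rose by 0.19 without and 0.21 with TVA, and Pprc1, a coactivator of the PGC-1 family, by 0.18 and 0.20. Dna2, a helicase and nuclease for DNA, rose by 0.33 without TVA, and Twnk, the mitochondrial DNA helicase, rose by 0.23 with TVA. Tars2, which charges the mitochondrial threonine tRNA, and Ppargc1b, another PGC-1 coactivator, rose by 0.22 and 0.26 with TVA. For TVA in siNTC cells, the log2 differences of Dna2 and Atad3a were 0.38 and -0.14 (limma adjusted p = 0.0139 and 0.0189). No nuclear copy of mitochondrial sequence was called in any comparison by limma or limma-voom among the 8 tested, with 0 to 1 at an unadjusted p of 0.05.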

How the data were processed

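mRNA-Seq libraries of 12 samples were analysed. The authors deposited FPKM values per gene in 1 table per library, with GRCm38/mm10 named as the genome in the submitters' processing notes. The aligner, the counting tool and its use of strand or of reads with several matches are not given in the sources used here. Reads were recovered by dividing FPKM times gene length by the step that a single read gives in that library (tolerance for whole values, 0.02 steps). Genes with a mean of at least 1 FPKM were tested with limma 3.58.1 in R 4.3.3 (trended empirical Bayes, all 12 libraries, a mean per group) on log2(FPKM + 1), which understates changes of low genes. P-values were adjusted by Benjamini-Hochberg over all genes tested, and an adjusted p under 0.05 was a call. The procedure was also run on simulated libraries, with changes planted only between siNTC and siCreb1 groups and not in genes with few reads. That run does not cover the finding of TVA differences, the interaction or changes in tRNAs with few reads. Shared stretches came from GENCODE M21 transcripts, with blastn 2.17.0 for alignments, and Python 3.11.15 was used for the rest. The depth sets counting error: floors and read counts cover that error only.

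The members and gene lists were chosen with earlier results of these data known. Among the protein and rRNA genes, those called in any comparison, the highest and the lowest protein gene and, as none was called, the 3 with the smallest adjusted p were described in full. Of the tRNAs, the 3 with the most reads and those called were described in full. Of the nuclear lists, only some of the called genes were named, and these are not in every list the ones with the largest change. Nuclear copies with more than 10 reads in a library were named. Alternatives covered the pseudocount, the filter, scaling, the model, a replicate block and leaving out each library.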

Additional observations from a re-analysis of the deposited data

How the results depend on the processing

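Mitochondrial differences were recomputed under up to 22 other settings, one at a time. The comparisons between groups had 21 or 22. The interaction, which needs all 4 groups and so has no fit on 2 groups alone, had 20 or 21. The lower numbers hold for mt-Atp8, mt-Tm, mt-Tq and mt-Tt, which fell below the stricter filter. mt-Tn and mt-Tc were called for siCreb1 without TVA under all 22, with log2 differences of 0.79 to 0.93 and 0.57 to 0.74 and adjusted p of at most 0.00859 and 0.0286. Of 3468 recomputed values, 179 changed sign, none of them called in either fit, and 14 were called that had not been. The number of mitochondrial genes called for TVA in siCreb1 cells rose from 0 to 1 (mt-Tr) when fitted on the compared libraries alone, and for siCreb1 with TVA from 0 to 1 with limma-voom on recovered reads (mt-Tp). mt-Tl1 was also called for siCreb1 without TVA with a mean of at least 5 FPKM, with limma-voom and on the compared libraries alone (adjusted p = 0.0461, 0.0429 and 0.0416). Leaving out one library gave 0 to 1 calls for TVA in siNTC cells, 0 to 0 for TVA in siCreb1 cells, 2 to 3 for siCreb1 without TVA, 0 to 0 for siCreb1 with TVA and 0 to 1 for the interaction. The added call for siCreb1 without TVA was mt-Nd5 without siNTC library 1, mt-Tr without siNTC library 3 (1.11, adjusted p = 0.0280), mt-Tl1 without library 1 or 3 of siNTC with TVA, and mt-Ty without siCreb1 library 2 (-0.77, adjusted p = 0.0478). The causes were not tested.

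Counts in the nuclear lists depended more on the processing. For TVA in siNTC cells, 6 became 2 with no filter, 3 with quantile normalization, 2 as TPM and 0 on the compared libraries alone. For siCreb1 without TVA, 14 became 5, 8, 5 and 4 under the same settings. For siCreb1 with TVA, 25 became 11, 7 and 5 under the first 3 of them and 14 with no variance trend. Distinct genes called in any of the 4 comparisons between groups numbered 32, and 15, 13, 9 and 21 with no filter, quantile normalization, TPM and no trend. For TVA in siCreb1 cells, 0 became 1 with limma-voom. For the interaction, 0 became 1 with a pseudocount of 0.1, a mean of at least 5 FPKM or scaling to nuclear reads alone, and 2 with limma-voom. Without single libraries the counts were 2 to 5, 0 to 1, 7 to 14, 8 to 30 and 0 to 1 for the 5 comparisons in the order of the preceding paragraph, and 19 to 34 for distinct genes. Without library 2 or 3 of siNTC with TVA, 2 and 3 were called for TVA in siNTC cells, and without siNTC library 2 or any siCreb1 library, 7 to 9 for siCreb1 without TVA. Over all genes, for TVA in siNTC cells 852 became 563 with no filter, 368 on the compared libraries alone, 556 as TPM and 558 without library 2 of siNTC with TVA. For TVA in siCreb1 cells, 62 became 162 with limma-voom, 39 on the compared libraries alone and 37 as TPM. For siCreb1 without TVA, 1586 became 992 with no filter, 817 on the compared libraries alone, and 1020 and 1054 without siCreb1 library 1 or 2. For siCreb1 with TVA, 1172 became 683 with no filter and 740 as TPM. For the interaction, 259 became 451 with limma-voom, 152 as TPM, and 168 to 172 without siCreb1 library 1 or 2 or library 2 of siNTC with TVA.

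Replicate numbers did not pair the libraries, since same-numbered libraries deviated together with r of -0.06 to 0.06 over 18 pairs of groups. With the replicate block, siCreb1 with TVA had 1 mitochondrial call (mt-Ts2, -0.46, adjusted p = 0.0493) and the interaction 1 call in the nuclear lists, and no other count of mitochondrial or listed nuclear genes moved by over 1.5 times. Over all genes, calls for TVA in siCreb1 cells fell from 62 to 34.

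The mitochondrial share was 4.62, 4.61, 4.79 and 4.76% of summed FPKM in siNTC, siNTC with TVA, siCreb1 and siCreb1 with TVA (4.69% over all), and of protein-coding reads alone 1.90, 1.91 and 1.91% in the last 3 groups. Without one library it was 1.89 to 2.03% in siNTC, 1.95 to 1.98% in siNTC with TVA, 1.96 to 1.99% in siCreb1 and 1.96 to 1.98% in siCreb1 with TVA. The fall of Creb1 without one library was -2.37 to -2.20 on the log2 scale. Depth limits the tRNAs and mt-Atp8.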

Other observations

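Ratios within a library were read after the values had been seen, 4 in all, and none was tested. The FPKM of mt-Rnr2 divided by that of mt-Rnr1 was 0.999 ± 0.0284 in siNTC, 1.01 ± 0.00565 in siNTC with TVA, 1.15 ± 0.0140 in siCreb1 and 1.14 ± 0.0288 in siCreb1 with TVA (SD, n = 3 each). The 6 siNTC libraries lay between 0.974 and 1.03 and the 6 siCreb1 libraries between 1.12 and 1.17, while neither rRNA alone was called. The FPKM of mt-Co1 divided by that of mt-Nd6, which is annotated on the other strand, was 5.79 ± 0.0989 in siNTC, and its libraries at 5.68 to 5.88 lay above the other 9 at 5.14 to 5.56. The ratio of mt-Nd5 to mt-Nd6 set another group apart: it was 0.992 ± 0.0147 in siNTC, 0.937 ± 0.00933 in siNTC with TVA, 0.977 ± 0.0257 in siCreb1 and 0.984 ± 0.00311 in siCreb1 with TVA, and the libraries of siNTC with TVA, at 0.927 to 0.945, lay below all others. The ratios with mt-Nd6 are subject to the limit on strand given above. The ratio of mt-Tn to mt-Tc reads was 0.729 ± 0.0563, 0.715 ± 0.0839, 0.858 ± 0.121 and 0.821 ± 0.0654 in the same order of groups.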
